A study of Mus musculus with 24 samples.

Results

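The genes described here encode voltage-gated sodium, calcium and potassium channels and the other potassium channels of the mouse pituitary. They were taken as every array probe whose annotated gene symbol began with Kcn, with Cacn, or with Scn followed by a digit. This rule found 252 of 45281 probes, which stood for 121 of the 19057 genes on the array. Of these, 103 probes for 68 genes passed the filter on dim probes, a detection p (from negative control beads) under 0.05 on at least 6 of 24 arrays, and entered the tests beside 12027 genes in all.

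The arrays measured whole pituitaries of 8-week-old mice of both sexes, with 6 wild types and 6 mutants of each sex, 4 groups in all. Mutants were deficient in Cga, the alpha subunit shared by thyrotropin and the gonadotropins, and the wild types were their littermates. All animals were of strain Mixed C57Bl6j 129S2SvPas, and each sample had an array of its own. The series title names thyrotrope adenoma. No label ties the samples to litters.

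Pituitary endocrine cells are electrically excitable. Sodium and calcium channels carry their action potentials, calcium entry triggers hormone release, and potassium channels set the resting potential and end each spike. An alpha subunit forms the pore of each channel, and beta, gamma, alpha2delta and other auxiliary subunits change its gating and its delivery to the membrane. Calcium-activated potassium channels of the large-conductance type, ERG-type potassium channels and inward rectifiers opened by dopamine receptors are well known from this tissue.

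In both sexes, mutant pituitaries had more RNA for Cacng5, a gamma subunit, Scn3b, a sodium channel beta subunit, Cacna2d3, an alpha2delta subunit, the potassium channel genes Kcnf1, Kcnh7, Kcnk3 and Kcnk10, and Kcnmb4. They had less for Cacnb4, a calcium channel beta subunit, the sodium channel Scn11a, the sodium-activated potassium channel Kcnt1, the tandem-pore channel Kcnk2 and 9 voltage-gated potassium channel genes. Scn11a fell 2.52-fold in males and at least 7.46-fold in females, and Cacng5 rose 8.50-fold and 12.4-fold. Of the 68 genes tested, 11 were called higher in both sexes (16.2% of all genes were) and 21 lower in both (16% of all genes were). Both counts include genes whose direction was in part set by the filter on dim probes, among them Scn3b, Kcnh7, Scn11a, Kcnt1, Kcna3, Kcng4 and Kcns2. With every value raised to a common floor of 5.79, the female differences of Kcng4 (-0.17) and Kcns2 (-0.01) were no longer called.

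The promoters of 4 of these genes are shown because they belong to members that moved the same way in both sexes. They are the 2 largest rises and the 2 largest falls, by the mean of both sexes' log2 differences, with mutant arrays apart from the wild types and a single start in RefSeq. Each sequence is the 250 bases before the start in build GRCm38.p6, read 5′ to 3′ on the gene's own strand and credited to RefSeq. Cacna2d3 lies at chr14:29721865-29722114 on the minus strand, Kcnh7 at chr2:63184288-63184537 on the minus strand, Scn11a at chr9:119825457-119825706 on the minus strand and Kcna3 at chr3:107035912-107036161 on the plus strand. Capitals mark the GC box GGGCGG on either strand.
Cacna2d3: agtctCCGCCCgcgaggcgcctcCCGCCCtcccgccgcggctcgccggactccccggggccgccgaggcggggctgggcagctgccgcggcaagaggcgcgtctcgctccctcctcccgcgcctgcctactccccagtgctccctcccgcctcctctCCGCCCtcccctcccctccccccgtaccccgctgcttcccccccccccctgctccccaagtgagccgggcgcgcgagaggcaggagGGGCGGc
Kcnh7: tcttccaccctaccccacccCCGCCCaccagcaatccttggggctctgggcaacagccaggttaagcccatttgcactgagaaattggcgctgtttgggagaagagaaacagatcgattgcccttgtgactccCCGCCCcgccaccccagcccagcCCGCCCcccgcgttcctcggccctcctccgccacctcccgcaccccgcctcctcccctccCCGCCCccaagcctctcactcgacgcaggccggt
Scn11a: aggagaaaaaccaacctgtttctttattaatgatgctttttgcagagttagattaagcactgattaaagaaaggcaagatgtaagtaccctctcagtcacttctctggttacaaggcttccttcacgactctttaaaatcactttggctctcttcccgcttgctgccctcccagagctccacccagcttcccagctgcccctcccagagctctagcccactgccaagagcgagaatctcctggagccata
Kcna3: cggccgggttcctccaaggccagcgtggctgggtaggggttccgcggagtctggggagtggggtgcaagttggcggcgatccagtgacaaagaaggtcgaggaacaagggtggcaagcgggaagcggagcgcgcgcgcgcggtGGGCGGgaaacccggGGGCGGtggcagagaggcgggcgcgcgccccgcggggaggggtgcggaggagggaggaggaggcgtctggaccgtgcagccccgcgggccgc

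Both rising genes and Kcna3 held the GC box, and the Scn11a sequence held none of the 5 motifs searched. The GC content was 80% for Cacna2d3, 67.6% for Kcnh7, 48% for Scn11a and 74.4% for Kcna3, against a median of 52% over 27025 promoters. Of the 121 genes, 92 had a promoter in the table, as had 52 of the 68 tested. The GC box was in 29 of these 52 (55.8%) and in 32.9% of all promoters. It was in 6 of 8 genes that rose in both sexes and in 5 of 17 that fell in both. The TATA element TATAAA was in 1 of the 52 (1.92%, against 13% of all promoters), the nuclear receptor element AGGTCA in 2 (3.85% against 13.8%), the Pit-1 core ATGNATA in 1 (1.92% against 8.16%) and the cyclic AMP response element TGACGTCA in 0 (against 1.62%). Both strands were searched, over the same 250 bases before the first listed start of each gene. These are matches of letters and not sites shown to be used. The shares of all promoters include genes that were undetected or not on the array. Whether channel genes differ in these motifs from other tested genes was not tested.

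Of the hormone genes that mark the pituitary, Prl, Gh, Pomc and Tshb were detected on all 24 arrays. Cga, the deleted gene, had a log2 intensity between 14.68 and 14.91 on the wild-type arrays and between 12.22 and 13.02 on the mutant arrays, with no overlap in either sex. Where the deletion lies relative to its probe was not stated, so this level cannot show how much of the transcript is left. The share of all probes detected averaged 41.7% to 48.9% by group and was lowest in wild-type males. Of the 252 channel probes, 31.3% ± 1.02 (SD, n = 6) were detected in wild-type males, 36.5% ± 1.20 in the mutants of that sex, 34.2% ± 1.36 in wild-type females and 37.6% ± 3.52 in female mutants. Mutant females 2 and 6 stood apart, with 42.5% and 41.7% of channel probes detected against 34.9% to 36.1% on the other mutant female arrays. The background SD averaged 19.0 in wild-type males and 10.3 to 11.3 in the other groups, and the dimmest probe called detected had a log2 intensity of 5.52 to 5.79 there and of 5.11 to 5.46 elsewhere. For genes near this limit, differences are also given after every value was raised to a common floor of 5.79, a step chosen after seeing the data.

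Many channel genes were not measurable. Where a gene had several probes, the one detected on the most arrays was counted. By that count 46 genes were detected on all 6 arrays of wild-type males, 50 of mutant males, 46 of wild-type females and 51 of mutant females. No probe was detected on any of the 24 arrays for 26 genes, among them the calcium channel Cacna1i and the potassium channels Kcna1, Kcna4, Kcnj9 and Kcnk4. Another 27 were detected on some arrays but did not pass the filter. Cacna1c, which encodes an L-type calcium channel pore, was one of these: of its 7 probes, 1 was detected, on 2 mutant female arrays. Of the 68 that passed, 38 were detected on all 24 arrays. A further 10 passed with fewer than 6 wild-type but at least 6 mutant arrays. They were Scn3b, Scn7a, Cacna1a, Cacna1b, Kcnd1, Kcnh7, Kcnj2, Kcnj4, Kcnj11 and Kcnk13. The other way round, 6 passed: Scn11a, Kcna3, Kcne1, Kcng4, Kcns2 and Kcnt1. Those called between genotypes were all higher in the genotype that brought them through, so their direction was in part set by the filter. Scn7a, Cacna1a, Kcnj2 and Kcnj11 were called in neither sex. The calls and adjusted p of all these genes below, which the counts include, are thus not independent of the filter.

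Levels below are background-corrected, quantile-normalised log2 intensities, and differences are mutant minus wild type on that scale ± SE with limma's Benjamini-Hochberg adjusted p over 12027 genes. Where a probe was undetected on all 6 arrays of the dimmer group, its fold change is a lower bound, "at least N-fold", set by the dimmest detected probe of each array. In males, 44 of the 68 genes were called at adjusted p under 0.05 (51.5% of all genes were), 16 higher (25%) and 28 lower (26.5%). In females, 41 were called (48.3% of all genes), 15 higher (22.8%) and 26 lower (25.5%). The shares over all genes in each sex also stand beside the counts of every channel class below, and no class was tested as a set. Calls of at least 2-fold numbered 18 in males (9.6% of all genes), 6 higher (5.23%) and 12 lower (4.37%). In females they numbered 20 (8.02%), 10 higher (4.82%) and 10 lower (3.2%). Mutant and wild-type arrays did not overlap for 29 members in males (30.7% of all genes) and for 27 in females (23.6%). The call was made in males alone for 11 genes (18.2% of all genes), in females alone for 8 (14.9%) and in neither sex for 16 (33.5%). The median difference of the 68 genes was -0.10 in males and -0.11 in females, against -0.01 and -0.03 over all genes. In whole-gland RNA, fewer cells of a type and less RNA per cell cannot be told apart.

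**Figure D1:**
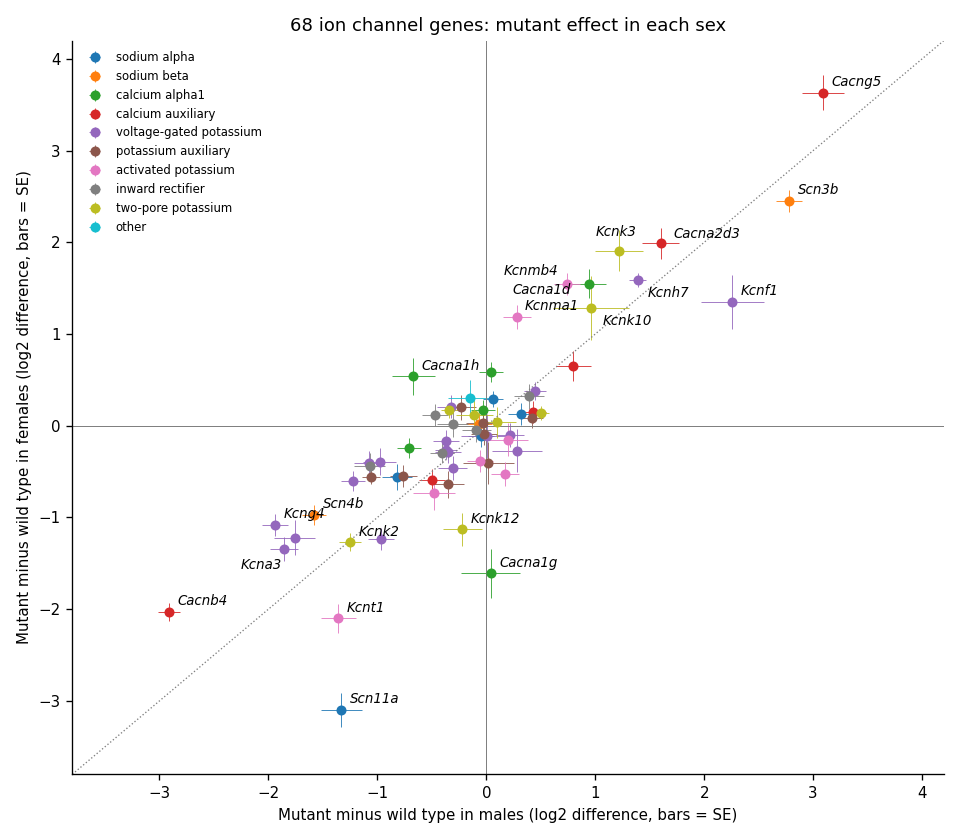
Log2 difference between mutant and wild type in males (horizontal axis) and in females (vertical axis) for the 68 channel genes, coloured by class (the label two-pore marks the tandem-pore channels), with bars of 1 SE and a dotted line of equal effects. Cacng5 (3.09 and 3.63) and Scn3b (2.78 and 2.45) lie at the upper right, Cacnb4 (-2.91 and -2.03) and Scn11a (-1.33 and -3.10) at the lower left, and Cacna1h (-0.67 and 0.54) in the upper left.

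Among sodium channel pore genes, 5 of 7 were tested. Scn11a encodes a persistent sodium channel known from sensory neurons. It ranged from 5.94 to 7.21 (median 6.52) in wild-type males and from 4.75 to 5.57 (median 5.30) in mutant males. Wild-type females lay higher, at 7.56 to 8.80 (median 8.04), and mutant females lay at 4.89 to 5.03 (median 5.01). No mutant array reached a wild-type array in either sex. The gene was undetected on all 6 mutant female arrays and detected on 3 of 6 mutant male arrays, with differences of -1.33 ± 0.19 in males (adjusted p = 2.7e-06) and -3.10 ± 0.19 in females (adjusted p = 8.9e-13). Raised to the common floor, the differences were -0.74 and -2.31.

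The other sodium pore genes moved less. Scn8a, a main channel of neuronal axons, fell 1.77-fold in mutant males (-0.82 ± 0.14, adjusted p = 1.4e-05) and 1.47-fold in mutant females (-0.56 ± 0.14, adjusted p = 0.0014). Scn3a, also of neurons, lay at 8.52 to 9.20 over all arrays, differed by 0.06 ± 0.09 in males (adjusted p = 0.59) and rose by 0.29 ± 0.09 in females (adjusted p = 0.013). Scn2a, another brain sodium channel, rose by 0.32 ± 0.12 in males (adjusted p = 0.029) and differed by 0.13 ± 0.12 in females (adjusted p = 0.41). Scn7a, a related channel involved in sodium sensing, passed in neither sex, with -0.05 and -0.11. On the brightest probes 1 of the 5 rose and 2 fell in each sex. For Scn3a the sexes changed places on a second probe, with 0.64 in males (adjusted p over all probes 0.00058) and -0.06 in females (0.76), and the mean of both probes gave 0.35 in males, called, and 0.12 in females, not called.

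All 3 sodium beta subunit genes on the array were tested, and each behaved differently. Scn3b lay between 4.81 and 4.97 (median 4.85) in wild-type males and between 7.43 and 7.85 (median 7.66) in mutant males. In females it lay between 4.97 and 5.75 (median 5.20) in wild types and between 7.44 and 8.11 (median 7.70) in mutants. The wild-type and mutant arrays were far apart in both sexes. It was undetected on all 6 wild-type male arrays and detected on 2 of 6 wild-type female arrays and on all 12 mutant arrays. Its direction was thus in part set by the filter. The rise was at least 4.04-fold in males (fitted difference 2.78 ± 0.12, adjusted p = 3.8e-16) and 2.45 ± 0.12 log2 in females (adjusted p = 4.5e-15). At the common floor the differences were 1.85 and 1.93.

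Scn4b, a beta subunit that binds sodium channels covalently, went the other way. It ranged from 7.20 to 7.84 (median 7.44) in wild-type males against 5.64 to 6.15 (median 5.88) in mutant males, and from 6.64 to 7.11 (median 6.89) in wild-type females against 5.61 to 6.19 (median 5.95) in mutant females. The groups did not overlap. It fell 2.99-fold in mutant males (adjusted p = 1.1e-11) and 1.96-fold in mutant females (adjusted p = 9.6e-08). Scn2b, another covalently bound beta subunit, lay at 9.19 to 10.12 on all arrays and differed by -0.07 ± 0.12 in males (adjusted p = 0.66) and 0.02 ± 0.12 in females (adjusted p = 0.92). One of its other 2 probes fell in males, by 0.62 (adjusted p over all probes 0.0005).

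**Figure D2:**
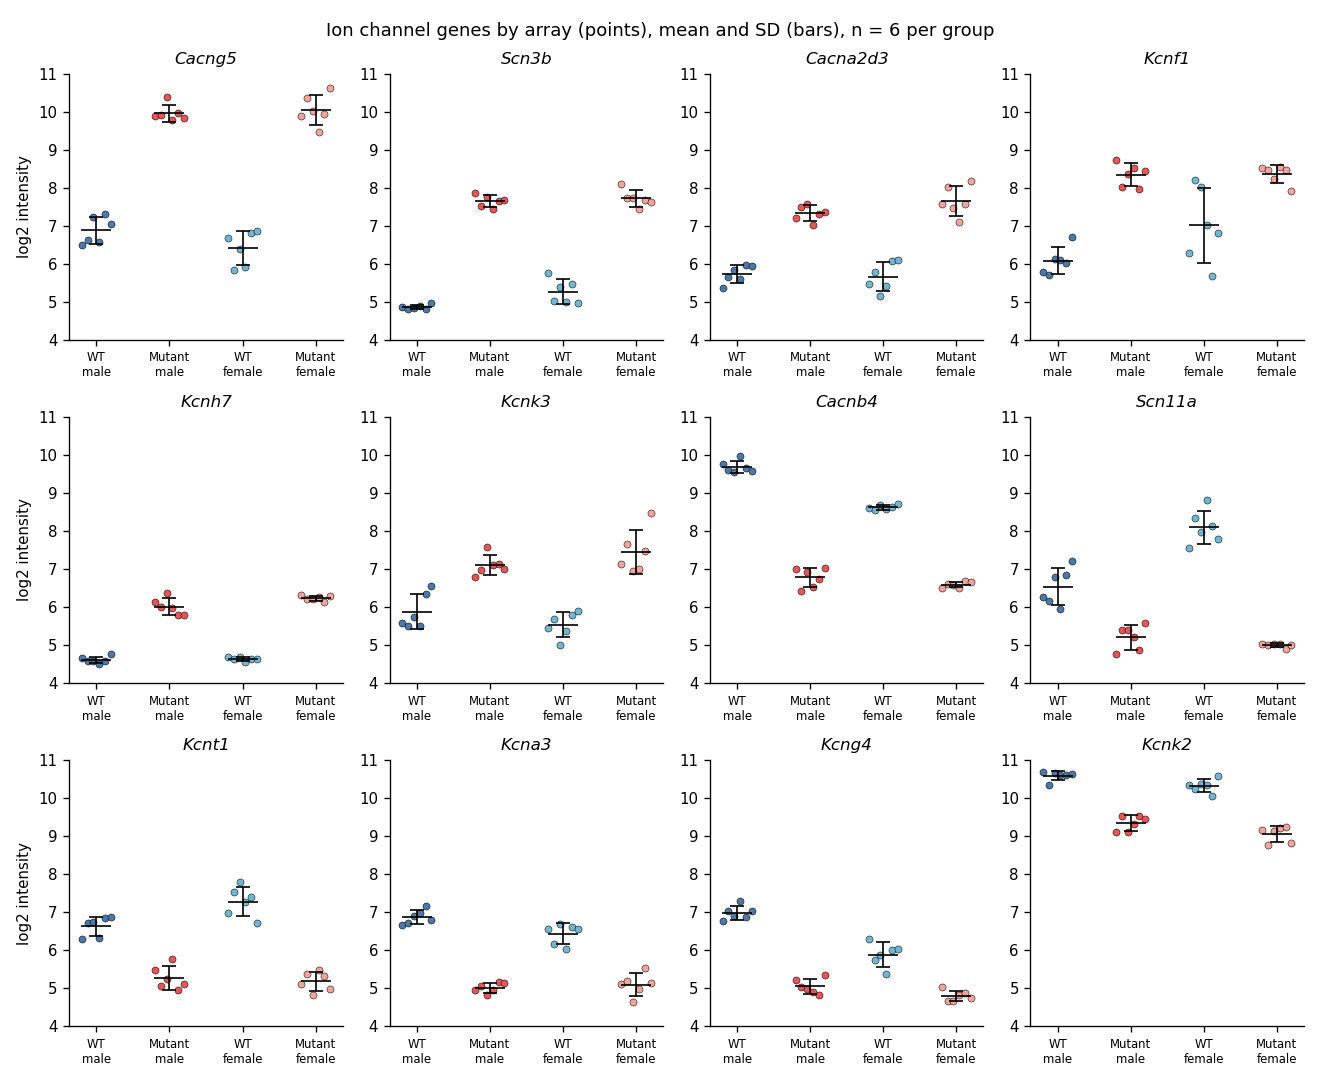
Log2 intensity (vertical axes) of 12 channel genes on every array of the 4 groups, with the mean and SD of 6 arrays as bars. The 6 genes from Cacng5 to Kcnk3 are higher in mutants and the 6 from Cacnb4 to Kcnk2 lower, and only Kcnf1 in females has overlapping mutant and wild-type arrays.

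Of 9 calcium channel pore genes 6 were tested. In males 1 was called higher and 2 lower, and in females 3 higher and 1 lower. Cacna1g and Cacna1h both encode T-type channels, which open at low voltage. Cacna1g lay at 5.46 to 5.97 (median 5.63) in wild-type males and 5.33 to 6.06 (median 5.73) in mutant males. In wild-type females it lay at 6.38 to 8.46 (median 6.92), above every other array, and in mutant females at 5.34 to 6.02 (median 5.63). The female fall was 3.05-fold (-1.61 ± 0.27, adjusted p = 1.8e-05), against a male difference of 0.04 ± 0.27 (adjusted p = 0.91).

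Cacna1h was the only member called in opposite directions in males and females (1.1% of all genes were). It ranged from 9.0 to 9.77 (median 9.34) in wild-type males and from 8.23 to 9.19 (median 8.80) in mutant males. In females it ranged from 7.80 to 8.88 (median 8.31) in wild types and from 8.47 to 9.46 (median 8.74) in mutants. Mutant and wild-type arrays overlapped in both sexes. It fell by 0.67 ± 0.20 in males (adjusted p = 0.0068) and rose by 0.54 ± 0.20 in females (adjusted p = 0.028). The female rise was 0.42 to 0.51 and not called without any one of 5 arrays: wild-type female 1 (0.43), 3 (0.49) or 6 (0.51), or mutant female 3 (0.42) or 5 (0.43).

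Cacna1d encodes an L-type pore. On its brightest probe it ranged from 6.36 to 7.44 (median 6.82) in wild-type males, 7.33 to 8.20 (median 7.89) in mutant males, 6.00 to 6.34 (median 6.21) in wild-type females and 7.47 to 8.14 (median 7.67) in mutant females. Mutants were higher, with slight overlap in males, and the differences were 0.94 ± 0.16 (adjusted p = 2.3e-05) and 1.55 ± 0.16 (adjusted p = 1.2e-08). The other 2 probes of the gene were lower in mutants. They differed by -1.15 and -1.0 in males (adjusted p over all probes 1.9e-09 and 6e-07) and by -0.84 and -0.76 in females (5.2e-07 and 3.7e-05). Averaged over the 3 probes, the difference was -0.40 in males and -0.02 in females, so no direction can be given for the gene as a whole. Of the 22 channel genes with several kept probes, 11 had a probe whose call in either sex was not that of the brightest. The transcripts that each probe reads were not stated in the sources used here.

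**Figure D3:**
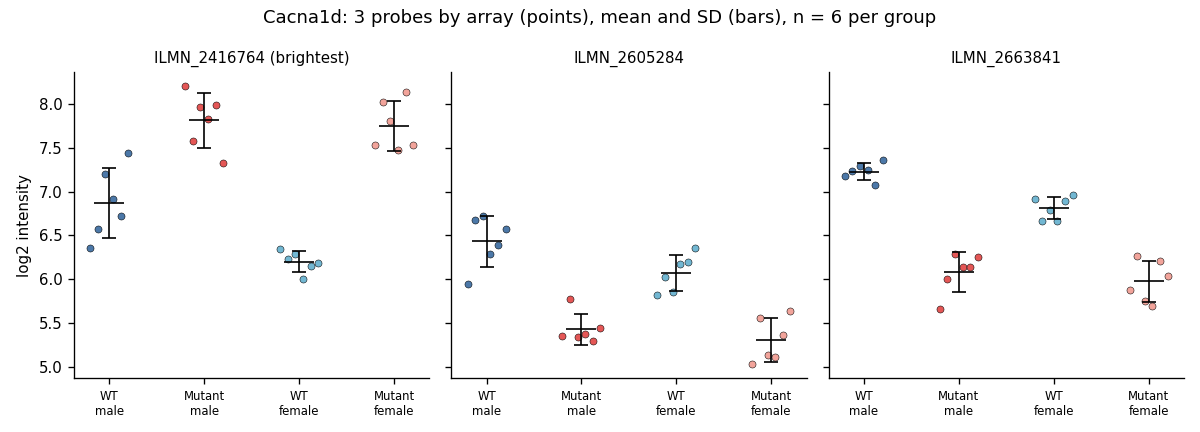
Log2 intensity of the 3 Cacna1d probes (1 panel each) on every array, with mean and SD of 6 arrays. The brightest probe is higher in mutants (medians 7.89 and 7.67 against 6.82 and 6.21), and the other 2 are lower (medians 5.36 and 6.14 in mutant males against 6.48 and 7.24 in wild-type males).

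The remaining calcium pore genes were close to the detection limit. Cacna1b, the N-type channel of nerve terminals, was undetected on all 6 wild-type female arrays and detected on all 6 mutant female arrays, a rise of at least 1.19-fold (fitted 0.59 ± 0.11, adjusted p = 9.9e-05). It differed by 0.04 in males, and at the common floor the female difference was 0.04. Cacna1e, the R-type channel, fell by 0.71 ± 0.11 in males (adjusted p = 8.8e-06) and differed by -0.24 in females, but was detected on only 4 of 6 wild-type male arrays and 1 array in each other group. Cacna1a, the P/Q-type channel, passed in neither sex.

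All 6 calcium channel auxiliary genes tested, of 14 listed, were called in males (4 higher, 2 lower), and 5 in females (3 higher, 2 lower). Over all genes, 51.5% were called in males and 48.3% in females. Cacng5, a gamma family gene whose relatives also bind AMPA-type glutamate receptors, had the largest rise of any channel gene. It ranged from 6.49 to 7.31 (median 6.83) in wild-type males and from 9.79 to 10.39 (median 9.90) in mutant males. In females it ranged from 5.84 to 6.85 (median 6.54) in wild types and from 9.47 to 10.63 (median 9.97) in mutants. The 12 mutant arrays all lay above the 12 wild-type arrays. It rose by 3.09 ± 0.19 in males (adjusted p = 8.5e-13) and 3.63 ± 0.19 in females (adjusted p = 3.4e-14), and both of its other probes were called higher in both sexes. Those probes were undetected on all 6 wild-type male arrays, and on all 6 or 5 of 6 wild-type female arrays, so that no size is given for them. Mutant arrays brought both through the filter, so their direction was in part set by it. By Pearson correlation over the 24 arrays, the genes most like Cacng5 were Sel1l (0.985), Pygl (0.985) and Pnck (0.983). These arrays share the 4 groups, so any gene that parts the genotypes correlates with it.

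Cacnb4, a beta subunit that brings calcium pores to the membrane, had the largest fall in males. Wild-type males lay at 9.56 to 9.97 (median 9.63) and mutant males at 6.42 to 7.03 (median 6.83). Wild-type females lay at 8.55 to 8.70 (median 8.61) and mutant females at 6.50 to 6.67 (median 6.59). The wild-type sexes did not overlap, whereas the mutant sexes did. The fall was 7.51-fold in mutant males (-2.91 ± 0.10, adjusted p = 1.4e-18) and 4.09-fold in mutant females (-2.03 ± 0.10, adjusted p = 2.1e-15). A dimmer second probe fell too, by 0.97 and 0.37. It was detected on 5 of 6 wild-type male arrays, 2 of 6 wild-type female arrays and 1 array of each mutant group. Its direction was thus in part set by the filter.

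The alpha2delta subunits, which raise the number of calcium channels at the surface, were higher in mutants. Cacna2d3 ranged from 5.35 to 5.98 (median 5.74) in wild-type males and from 7.01 to 7.58 (median 7.35) in mutant males, and from 5.16 to 6.10 (median 5.62) in wild-type females and from 7.10 to 8.18 (median 7.57) in mutant females. The groups did not overlap, and it rose 3.04-fold in mutant males (adjusted p = 1.5e-08) and 3.97-fold in mutant females (adjusted p = 3.8e-10). Cacna2d1, the gabapentin-binding subunit, rose 1.74-fold in mutant males (adjusted p = 0.00018) and 1.57-fold in mutant females (adjusted p = 0.0016). One of its other 2 probes did not follow in females, with -0.32 (adjusted p over all probes 0.15). Cacng7, a gamma family gene, fell by 0.50 and 0.59, and Cacnb2, a beta subunit, rose by 0.43 ± 0.12 in males and differed by 0.15 in females. Another Cacnb2 probe had the reverse pattern, with 0.01 in males (adjusted p over all probes 0.96) and 0.58 in females (0.003), and between wild-type sexes probes of this gene were called in opposite directions.

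Voltage-gated potassium channel pore genes were the largest class, with 18 of 35 tested, and 12 were called lower and 3 higher in males (26.5% and 25% of all genes were). In females 9 were lower and 3 higher (25.5% and 22.8% of all genes). The class median was -0.36 in males and -0.28 in females. Kcna3, a Shaker-type channel known from lymphocytes and microglia, fell in both sexes, and which cells carried its RNA was not tested. It ranged from 6.67 to 7.16 (median 6.85) in wild-type males and from 4.82 to 5.16 (median 5.01) in mutant males. In females it ranged from 6.03 to 6.70 (median 6.56) in wild types and from 4.63 to 5.53 (median 5.12) in mutants. Mutant arrays lay below all wild-type arrays. The fall was at least 3.13-fold in males, where it was undetected on all mutant arrays (adjusted p = 5.5e-12), and 2.53-fold in females, where it was detected on 3 of 6 (adjusted p = 3e-09). At the common floor the differences were -1.08 and -0.65.

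The other Shaker-type genes tested fell as well. Kcna2 fell 2.11-fold in males and 1.33-fold in females (adjusted p = 1.7e-07 and 0.012), and Kcna6 1.96-fold and 2.35-fold (adjusted p = 1.7e-07 and 3.4e-09). Kcna5 fell by 0.98 ± 0.15 in mutant males and 0.39 ± 0.15 in mutant females (adjusted p = 3.4e-06 and 0.028). All 4 tested members of the family were thus called lower in both sexes (16% of all genes were). This count includes Kcna3, whose direction was in part set by the filter, and the family was not tested as a set. Kcna1, Kcna4, Kcna7 and Kcna10 did not pass the filter.

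Kcnc4, a Shaw-type channel of fast repolarisation, lay at 9.58 to 10.94 (median 9.98) in wild-type males and 8.11 to 8.47 (median 8.38) in mutant males, and at 8.97 to 9.88 (median 9.35) in wild-type females and 7.76 to 8.50 (median 8.12) in mutant females. There was no overlap, and it fell 3.38-fold in mutant males (adjusted p = 1.4e-08) and 2.33-fold in mutant females (adjusted p = 5.6e-06). Its relative Kcnc1 fell by 0.32 ± 0.13 in males (adjusted p = 0.041) and differed by 0.21 ± 0.13 in females (adjusted p = 0.19). Among genes for the A-type current, Kcnd2 fell by 0.35 in males (adjusted p = 0.02) and differed by -0.29 in females (adjusted p = 0.052). On its second probe the calls changed places, with -0.35 in males (adjusted p over all probes 0.054) and -0.45 in females (0.016). Kcnd1 was called higher in both sexes but undetected on all wild-type arrays, and both differences were 0.00 at the common floor.

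Several members are silent subunits, which form no channel alone and modify other voltage-gated potassium channels. Kcng4 ranged from 6.76 to 7.30 (median 6.97) in wild-type males against 4.82 to 5.35 (median 5.0) in mutant males, and from 5.36 to 6.30 (median 5.93) in wild-type females against 4.67 to 5.02 (median 4.78) in mutant females. It fell 3.83-fold in mutant males (adjusted p = 1.1e-12) and at least 1.61-fold in mutant females (adjusted p = 6.1e-08), where no mutant array detected it. Kcns2 fell at least 1.85-fold in males and at least 1.15-fold in females (adjusted p = 1.3e-09 and 9.9e-05), undetected on all 12 mutant arrays. At the common floor the male differences of Kcng4 and Kcns2 were -1.19 and -0.32, and the female ones -0.17 and -0.01, which were no longer called. Kcns1 fell by 0.37 and 0.26, and Kcnv2 by 0.31 and 0.46.

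Kcnf1, also a silent subunit, rose. It lay at 5.71 to 6.71 (median 6.05) in wild-type males and 7.96 to 8.74 (median 8.40) in mutant males. Wild-type females spread widely, from 5.68 to 8.19 (median 6.93), and mutant females lay at 7.91 to 8.55 (median 8.47). The groups were apart in males and overlapped in females, where 2 wild-type arrays reached the mutant range. It rose 4.79-fold in mutant males (2.26 ± 0.29, adjusted p = 3.3e-07) and 2.55-fold in mutant females (1.35 ± 0.29, adjusted p = 0.00039).

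The ether-a-go-go family went in more than one direction. Kcnh7, an ERG-type channel, was undetected on all 12 wild-type arrays, at 4.51 to 4.75, and detected on all 12 mutant arrays, at 5.78 to 6.36 in males and 6.13 to 6.31 in females. It rose at least 1.30-fold in males (adjusted p = 1.8e-13) and at least 1.79-fold in females (adjusted p = 1.2e-14). Since mutant arrays alone brought it through the filter, its direction was set by the filter. At the common floor, which lies within the mutant male range, the differences were 0.22 and 0.44, both still called. Kcnh2, the ERG channel best known for cardiac repolarisation, ranged from 9.90 to 10.14 in wild-type males and from 9.53 to 9.84 in mutant males, without overlap, and fell by 0.37 ± 0.12 (adjusted p = 0.013). In females it differed by -0.17 ± 0.12 (adjusted p = 0.26). Kcnh1, Kcnh6 and Kcnq1 passed in neither sex.

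**Figure D4:**
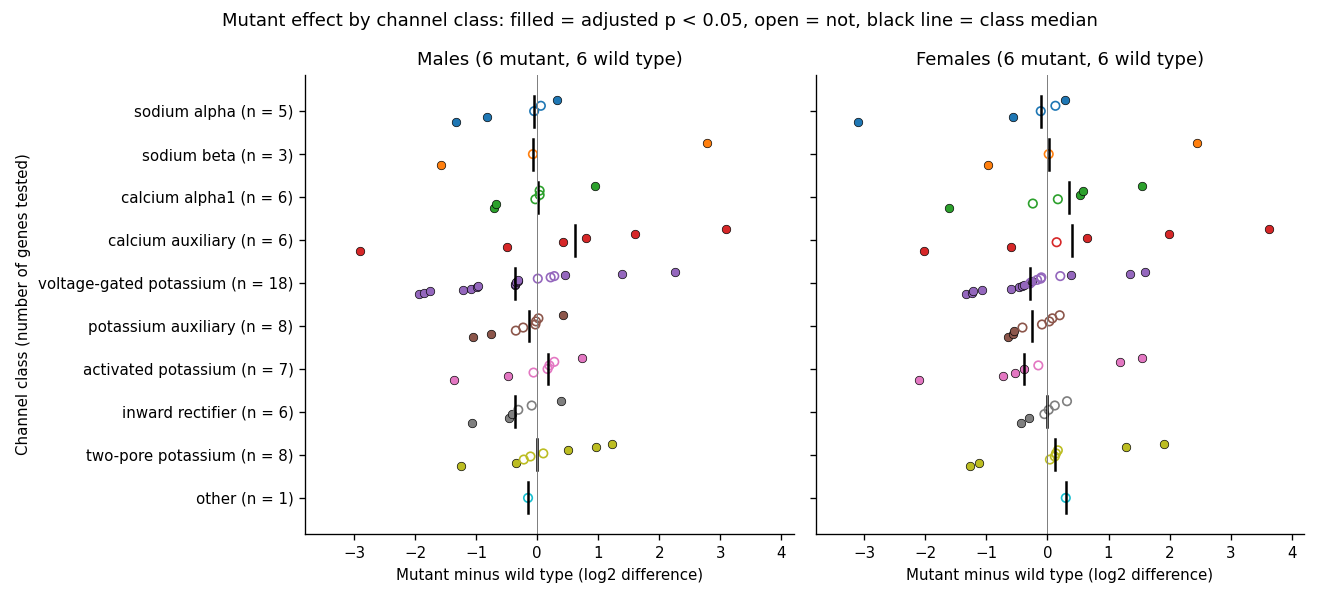
Log2 difference between mutant and wild type (horizontal axes) of each channel gene tested, by class (rows), in males (left) and females (right), with filled points for adjusted p under 0.05 and a black line at the class median. Voltage-gated potassium genes lie mostly below 0 (12 lower and 3 higher in males), and calcium auxiliary genes spread from -2.91 to 3.09 in males.

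Of 13 auxiliary genes of voltage-gated potassium channels 8 were tested, with 1 higher and 2 lower in males and 0 higher and 3 lower in females. Kcne1, the partner of the cardiac slow delayed rectifier, fell on its only kept probe, which was undetected on all 12 mutant arrays, by at least 1.77-fold in males (5.94 to 6.19 in wild types, adjusted p = 2.8e-11) and at least 1.26-fold in females (5.34 to 5.69, adjusted p = 2.5e-06). At the common floor the differences were -0.26 in males and 0.00 in females, the female one no longer called. Another probe of the gene, not kept, was detected on 1 mutant male array. Kcnip3, a calcium-binding partner of A-type channels, fell by 0.76 ± 0.12 in mutant males and 0.55 ± 0.12 in mutant females (adjusted p = 1.1e-05 and 0.0006). Kcnab2, a cytoplasmic beta subunit, rose by 0.42 ± 0.10 in males (adjusted p = 0.0012) and differed by 0.08 in females, whereas Kcnab1, its relative, fell by 0.64 ± 0.15 in females (adjusted p = 0.0012), with a male difference of -0.35. Another Kcnab1 probe was also called lower in females (-0.71, adjusted p over all probes 4.6e-05), but a dimmer one was not (-0.09, 0.56). Kcne1l, Kcne2, Kcnip2 and Kcnrg passed in neither sex.

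The class named for potassium channels opened by calcium or sodium was set by symbol, and also holds beta subunits and Kcnu1. Of its 11 genes 7 were tested, with 1 higher and 2 lower in males and 2 higher and 4 lower in females. The large-conductance channel is built from Kcnma1, its pore, with beta subunits such as Kcnmb4 and Kcnmb2. Kcnma1 ranged from 7.27 to 7.81 (median 7.47) in wild-type males and from 7.53 to 8.07 (median 7.79) in mutant males. In females it ranged from 6.68 to 6.98 (median 6.87) in wild types and from 7.74 to 8.54 (median 7.93) in mutants. The male groups overlapped and the female groups did not. The difference was 0.28 ± 0.13 in males (adjusted p = 0.066) and 1.19 ± 0.13 in females (adjusted p = 2e-08). The male difference was called without wild-type male 1 (0.34), mutant male 1 (0.33) or mutant female 2 (0.28). All 3 Kcnma1 probes rose in females (0.91 to 1.19), and in males they gave -0.37 to 0.32.

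Kcnmb4, the brain-type beta subunit, lay at 9.04 to 9.35 (median 9.31) in wild-type males and 9.68 to 10.12 (median 10.04) in mutant males, and at 8.09 to 9.01 (median 8.45) in wild-type females and 9.82 to 10.37 (median 10.03) in mutant females. Mutants lay above all wild types of their sex, with a rise of 1.67-fold in mutant males (adjusted p = 2.1e-05) and 2.94-fold in mutant females (adjusted p = 1.1e-10). Kcnmb2, the inactivating beta subunit, fell by 0.48 ± 0.19 in males (adjusted p = 0.032) and 0.73 ± 0.19 in females (adjusted p = 0.0021). The male fall was no longer called without any one of 6 arrays, 3 of each male group, where it was -0.35 to -0.46, nor at the common floor (-0.32, adjusted p = 0.085).

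Kcnt1, a sodium-activated channel, fell most in this class. It ranged from 6.30 to 6.86 (median 6.72) in wild-type males and from 4.94 to 5.78 (median 5.18) in mutant males, and from 6.72 to 7.78 (median 7.33) in wild-type females and from 4.83 to 5.47 (median 5.22) in mutant females. No mutant array reached a wild-type one. It fell 2.56-fold in mutant males (adjusted p = 1.3e-07) and 4.27-fold in mutant females (adjusted p = 6.6e-11). It was detected on 2 of 6 mutant male and 3 of 6 mutant female arrays, so its direction was in part set by the filter. At the common floor the differences were -0.84 and -1.49, both still called. Its second probe fell as well, but was undetected on every mutant array, so that its direction was set by the filter. The small-conductance channels Kcnn1 and Kcnn2 fell in females by 0.53 and 0.38 and differed by 0.17 and -0.06 in males. Kcnu1, a sperm potassium channel in the mouse, passed in neither sex.

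Inward rectifiers numbered 6 tested of 13, with 1 higher and 3 lower in males and 0 higher and 2 lower in females. Kcnj6 and Kcnj3 encode subunits of channels opened by G proteins. Kcnj6 ranged from 6.78 to 7.44 (median 6.94) in wild-type males and from 5.63 to 6.26 (median 5.93) in mutant males, and from 6.03 to 6.79 (median 6.69) in wild-type females and from 5.76 to 6.32 (median 6.15) in mutant females. It fell 2.10-fold in males without overlap (adjusted p = 3e-07) and 1.36-fold in females with overlap (adjusted p = 0.0091), and its other 2 probes were not called in females. Kcnj3 fell by 0.41 ± 0.11 in males (adjusted p = 0.0029) and 0.30 ± 0.11 in females (adjusted p = 0.026). The female call was lost without mutant female 6, where it was -0.21, or wild-type female 3 (-0.27).

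Among ATP-sensitive channel pores, Kcnj8, of vascular smooth muscle and pericytes, fell by 0.47 ± 0.12 in males (adjusted p = 0.0016) and differed by 0.12 in females. Kcnj11, the pore of the pancreatic beta cell channel, lay at 4.88 to 5.76 on all arrays, detected on 11 of 24, and passed in neither sex. Kcnj4 was undetected on all 6 wild-type male arrays and detected on all 6 mutant ones, a rise of at least 1.02-fold with overlapping arrays (adjusted p = 0.017), and differed by 0.32 in females (adjusted p = 0.054), and Kcnj2 passed in neither sex.

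Tandem-pore channels carry the background potassium current, and 8 of 14 were tested, with 3 higher and 2 lower in males and 2 of each in females. Kcnk2, a channel opened by stretch and lipids, lay at 10.34 to 10.69 (median 10.62) in wild-type males and 9.10 to 9.54 (median 9.39) in mutant males, and at 10.06 to 10.58 (median 10.34) in wild-type females and 8.77 to 9.23 (median 9.14) in mutant females. No mutant array reached a wild-type array. Kcnk2 fell 2.37-fold in males and 2.41-fold in females (adjusted p = 1.9e-10 and 1.6e-10), and the difference between these effects was -0.02 ± 0.15 (adjusted p = 0.94).

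Kcnk3, an acid-sensitive channel, rose. It lay at 5.50 to 6.54 (median 5.67) in wild-type males and 6.78 to 7.57 (median 7.06) in mutant males, and at 5.01 to 5.90 (median 5.57) in wild-type females and 6.95 to 8.46 (median 7.31) in mutant females. The groups did not overlap, and the rise was 2.33-fold in mutant males (adjusted p = 5.3e-05) and 3.76-fold in mutant females (adjusted p = 8.7e-08). Kcnk10, the nearest relative of Kcnk2, was called higher (0.96 ± 0.35 and 1.28 ± 0.35, adjusted p = 0.023 and 0.0036), with wild-type arrays from 5.62 to 8.08 that overlapped the mutants. Kcnk2 and Kcnk10 thus went in opposite directions in both sexes.

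Kcnk12 and Kcnk13 encode a pair of related channels. Kcnk12 fell 2.18-fold in females, from 6.47 to 7.53 (median 6.93) to 5.39 to 6.43 (median 5.75), with adjusted p = 7.8e-06, against a male difference of -0.22 ± 0.18 (adjusted p = 0.30). Kcnk13 was called higher in males (adjusted p = 6.4e-06) but undetected on all wild-type arrays, with a difference of 0.00 at the common floor. Kcnk1, a weak inward-rectifying tandem-pore channel, fell by 0.34 ± 0.08 in males (adjusted p = 0.001) and differed by 0.17 ± 0.08 in females (adjusted p = 0.089). Its second probe, detected on all 24 arrays, was not called, with -0.12 in males (adjusted p over all probes 0.27) and 0.1 in females (0.37). Kcnk5 and Kcnk6 passed in neither sex, and neither did Kcnq1ot1, a noncoding RNA from the Kcnq1 locus and the only other gene tested.

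The difference between the sexes in the mutant effect was tested as an interaction. It was called for 19 of 68 genes (13.6% of all genes), 13 higher (7.25%), meaning a more positive effect in females, and 6 lower (6.36%). It exceeded 2-fold for 3 (2.34% of all genes). The 3 were Scn11a (-1.77 ± 0.28, adjusted p = 0.00012), Cacna1g (-1.65 ± 0.38, adjusted p = 0.0047) and Cacna1h (1.21 ± 0.28, adjusted p = 0.0056). Kcnma1 (0.91 ± 0.18, adjusted p = 0.0014), Cacnb4 (0.87 ± 0.13, adjusted p = 0.00011), Kcng4 (0.85 ± 0.17, adjusted p = 0.0018) and Kcnmb4 (0.82 ± 0.18, adjusted p = 0.003) followed. Kcnk12 (-0.91), Kcnt1 (-0.74) and Kcnn1 (-0.70) had more negative effects in females. The Kcnt1 difference was no longer called without any one of 9 arrays (-0.64 to -0.71, adjusted p = 0.052 to 0.063), with no filter on dim probes (-0.74, adjusted p = 0.053) or with the mean of its probes (-0.54, adjusted p = 0.06). Effects of Scn11a and Kcng4 in females are bounds, and their differences of effects at the common floor were -1.56 and 1.02.

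Wild-type females and males differed for 30 of 68 genes (27.3% of all genes), 9 higher in females (12.5%) and 21 lower (14.8%). This comparison shares its wild-type arrays with those above, so its values are given side by side with them and not as a separate line of evidence. At least 2-fold differences numbered 6 (2.19% of all genes). Females were higher for Scn11a (1.56 ± 0.19, adjusted p = 1.6e-06), Cacna1g (1.56 ± 0.27, adjusted p = 9.5e-05), Kcnk12 (1.04 ± 0.18, adjusted p = 8.4e-05), Kcnf1 (0.93), Kcnt1 (0.65) and Kcnu1 (0.62). They were lower for Kcng4 (-1.10 ± 0.12, adjusted p = 3e-07), Cacnb4 (-1.06 ± 0.10, adjusted p = 9.2e-09), Cacna1h (-1.05 ± 0.20, adjusted p = 0.0003), Kcnmb4 (-0.78), Kcnc4 (-0.74) and Kcns2 (-0.72, or -0.31 at the common floor). The arrays of the wild-type sexes did not overlap for 15 members (11.1% of all genes), Scn11a, Cacna1g, Cacnb4 and Kcng4 among them. The Kcnf1 difference was not called without wild-type female 2 (0.69) or 3 (0.73).

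Between mutant females and males limma called 0 of 68 genes (0.0665% of all genes, or 8, were called), and 0 had arrays that did not overlap (0.258% of all genes). The count was also 0 in every other setting run. At an unadjusted p under 0.05 there were 7 (6.22% of all genes), Scn2b, Scn3a, Scn7a, Kcnh7, Kcnk2, Kcnk13 and Kcnma1. All 68 differences lay between -0.32 and 0.35, whereas in wild types they lay between -1.10 and 1.56. The median SE of a difference over all genes was 0.117, so small differences between mutant sexes could not be resolved with 6 arrays a group.

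**Figure D5:**
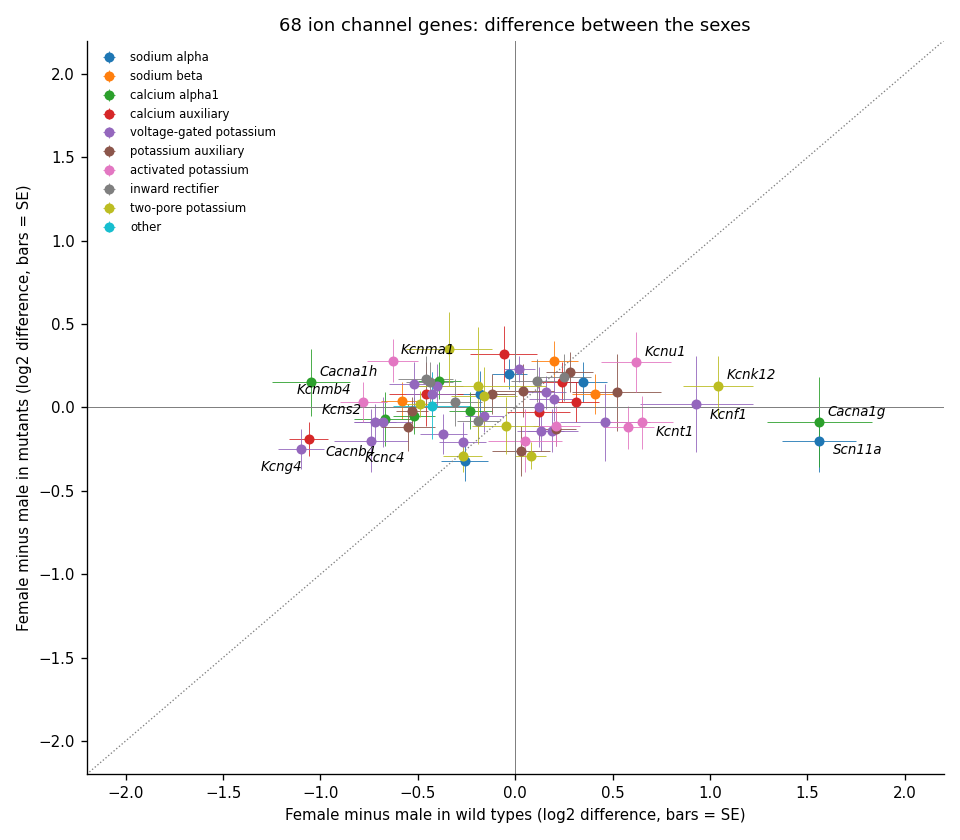
Female minus male log2 difference in wild types (horizontal axis) and in mutants (vertical axis) for the 68 channel genes, with bars of 1 SE and a dotted line of equal differences. Points spread from -1.10 to 1.56 along the wild-type axis and only from -0.32 to 0.35 along the mutant axis.

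Genes that work beside these channels were counted from lists drawn from textbook knowledge. Over all genes, 25% were higher and 26.5% lower in males, and 22.8% higher and 25.5% lower in females. Those shares stand beside the counts of each list below. Of 25 other cation channels tested, 7 were higher and 8 lower in males, and 8 higher and 4 lower in females. Trpc4, a receptor-operated cation channel, rose at least 3.55-fold in males and at least 3.88-fold in females (adjusted p = 8.7e-18 and 2e-18), undetected on every wild-type array. Trpm2, opened by ADP-ribose, fell at least 2.46-fold and at least 1.47-fold. Piezo1, the stretch channel, fell by 1.38 and 0.72, while Trpv2 rose at least 1.34-fold and 1.85-fold and the proton channel Hvcn1 at least 1.40-fold and 1.63-fold. Trpc4 and Hvcn1 were detected on mutant arrays alone and Trpm2 on wild-type arrays alone, so their direction was in part set by the filter. The list counts and adjusted p include such genes, and no differences at the common floor were worked out for these lists.

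Of 27 channel partner proteins, 8 rose and 8 fell in males, and 8 rose and 9 fell in females. Stac, an adaptor of L-type calcium channels, rose by 3.37 ± 0.12 in mutant males and 3.38 ± 0.12 in mutant females (adjusted p = 4.3e-18 and 3.4e-18), from 5.27 to 5.92 on wild-type arrays to 8.62 to 9.28 on mutant arrays. Its relative Stac2 went the other way, by -2.70 ± 0.15 and -0.84 ± 0.15 (adjusted p = 7.1e-14 and 5.5e-05). Dpp10, an auxiliary subunit of A-type potassium channels, rose by 1.56 and 2.74, and Lrrc38, a gamma subunit of the large-conductance channel, by at least 2.89-fold in males and 1.65 log2 in females.

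Of 18 genes of intracellular calcium handling, 5 rose and 5 fell in males, and 7 rose and 2 fell in females. Atp2a3, a calcium pump of the endoplasmic reticulum, rose by 3.32 ± 0.16 and 3.29 ± 0.16 (adjusted p = 2.1e-15 and 2.5e-15). Ryr3, a calcium release channel, rose at least 1.33-fold and 1.91-fold, its relative Ryr1 fell by 1.37 and 0.70, and Slc8a1, the sodium-calcium exchanger, rose by 0.66 and 1.11. Of 13 chloride channel genes, 4 rose and 3 fell in males, and 4 rose and 2 fell in females, with Clic5 at least 1.45-fold and 1.56-fold higher and Clcn2 higher by 0.63 and 0.92. Clcn1 fell by 1.28 and 0.40, Clic6 fell by 0.40 and 1.01, and Ano2 rose at least 1.06-fold in males and by 0.38 in females.

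Several lists of cell type markers moved with genotype beside the channel genes. All 5 thyrotrope markers were higher in both sexes, with summed levels of 12800 to 27700 on wild-type and 38700 to 44000 on mutant arrays. Lactotrope markers fell (3 of 5 in males, 5 of 5 in females; 28300 to 35000 against 13100 to 30700), as did somatotrope markers (3 and 4 of 4; 35000 to 40400 against 28700 to 33600). Of 4 gonadotrope markers, 0 rose and 2 fell in males and 2 rose and 2 fell in females (7890 to 25300 against 6270 to 11800). The 7 immune markers tested were all higher in both sexes (2790 to 5520 against 6500 to 14000). Of 5 neuron markers, 3 were higher in males and 2 in females (5890 to 9170 against 10800 to 14600), while Nefl, Tubb3 and Snap25 did not pass the filter. Pericyte and smooth muscle markers, beside which Kcnj8 is listed above, had 2 of 6 lower in males and 2 higher and 1 lower in females (1050 to 1230 against 756 to 1010 in males, 941 to 1110 against 922 to 1190 in females). Other lists had fewer called members. In males and females, 1 and 1 of 3 corticotrope and melanotrope, 1 and 2 of 5 folliculostellate and stem cell, and 1 and 2 of 6 posterior lobe markers were lower, with 0 higher. Of 8 endothelial markers 2 rose and 2 fell in males and 3 rose and 2 fell in females, of 2 markers of myelinating glia 0 moved in males and 1 fell in females, and of 2 red blood cell markers 0 were called in either sex. The part of these cell types in the channel results was not tested.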

How the data were processed

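Pituitary RNA of 24 mice was hybridised to Illumina arrays, 1 array per animal. Per the file headers, the authors deposited for every array an average bead intensity and a detection p-value per probe. The submitters' processing notes name GenomeStudio 2011.1. A second deposited table of processed intensity served only as an alternative; how it was normalized was not stated in the sources used here. The bead counts and bead errors in 48 further columns were not used.

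Intensities were background-corrected with negative controls estimated from the detection p-values (normexp, offset 16), quantile-normalised and put on a log2 scale with limma 3.58.1 in R 4.3.3. The offset understates changes of dim probes. Of 45281 probes, 34885 had 1 gene symbol, 18 several and 10378 none in the platform annotation. All 252 channel probes carried their current RefSeq symbol. Kept probes had a detection p under 0.05 on at least 6 arrays, and each gene was read by its kept probe with the highest mean. The linear model (lmFit, eBayes) had 1 mean per group and a shared spread, with Benjamini-Hochberg adjustment over 12027 genes. On simulated data, with changes in mutant males alone, it recovered 98 of 100 genes changed by 1 log2 and 69 of 100 changed by 0.5. There 5 of 11827 unchanged genes were called. Recovery with as many changed genes as in these data (51.5% called in males) was not tested. Nor was it tested for probes near the detection limit or for groups of unequal background.

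Where a probe was undetected on all 6 arrays of the dimmer group, "at least N-fold" sets the brighter group's mean against the dim group's mean. For that mean each array contributes its dimmest detected probe or, if brighter, the probe itself. The number of arrays limits the precision. Labels do not say how animals were related, and p-values measure the spread between these samples. Alternatives covered scaling, background, filters, probe choice, the authors' table, the fit's samples and each array left out.

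The members and gene lists were chosen with earlier results of these data known. Genes named by rule were the largest called rises and falls with no overlap in each sex (up to 12 each way), up to 6 called differences in either direction from the sex comparisons, taken by size, and in each class the highest mean and the smallest adjusted p. Kcnma1, Kcnh2, Kcnj11, Cacna1c and Cacna1d were named whatever their values, and Scn9a was not analysed here. Related genes were the 3 called members of a list with the largest difference in either sex. Other members were named after their values were seen, to account for every gene tested.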

Additional observations from a re-analysis of the deposited data

Results flagged for a closer look

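The mutant effect differed between the sexes by limma's interaction term for 19 channel genes (female effect minus male effect, log2; 13.6% of all genes were called). It was more positive in females for Cacna1h (1.21), Kcnma1 (0.91), Cacnb4 (0.87), Kcng4 (0.85), Kcnmb4 (0.82), Kcna2 (0.67), Kcnj6 (0.63), Kcns2 (0.63), Scn4b (0.61), Kcnj8 (0.59), Cacna1b (0.55), Kcnk1 (0.52) and Kcne1 (0.51). It was more negative in females for Scn11a (-1.77), Cacna1g (-1.65), Kcnk12 (-0.91), Kcnt1 (-0.74), Kcnn1 (-0.70) and Kcnk13 (-0.36). On the second Kcnk1 probe the difference of effects was 0.22 and not called (adjusted p over all probes 0.24). For Scn11a, Kcng4, Kcns2, Kcne1, Cacna1b and Kcnk13 the probe was undetected in at least 1 of the groups, so that these fitted differences are not exact sizes. At the common floor of 5.79 they were -1.56 for Scn11a, 1.02 for Kcng4, 0.31 for Kcns2 and 0.26 for Kcne1, still called, and 0.04 for Cacna1b and 0.00 for Kcnk13, not called.

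Of 164 groups checked, 41 genes in 4 groups each, 9 held an array far from the rest by Dixon's criterion for 6 samples, and chance alone picks about 1 in 20. Mutant male 3 was high for Cacng5 (10.39 against 9.79 to 9.96) and low for Kcnmb4 (9.68 against 10.02 to 10.12). Mutant female 2 was high for Kcnk13 (5.32 against 4.95 to 5.08) and Kcnu1 (8.41 against 7.63 to 7.70). Mutant female 6 was low for Kcnj3 (6.24 against 6.70 to 6.81) and Kcnmb2 (5.25 against 5.60 to 5.81), and mutant female 5 was low for Scn11a (4.89 against 5.0 to 5.03). Wild-type male 2 was low for Kcnk2 (10.34 against 10.61 to 10.69) and wild-type male 6 high for Kcnn1 (6.54 against 5.71 to 5.98). Mutant females 2 and 6 also had the largest shares of channel probes detected.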

How the results depend on the processing

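Counts of called channel genes stayed within 1.5 times the reported 44 in males, 41 in females, 19 for the difference of effects and 30 between wild-type sexes, except in the settings that follow. Limited to the 38 genes detected on all 24 arrays, they were 27, 25, 11 and 18, since fewer genes were tested. The shares called among all 9166 genes detected on all 24 arrays are not given here. With only the 12 arrays of lower raw background the difference of effects was called for 1 gene, and with only the 12 of higher background for 8, with fewer arrays in each. The common floor, these splits and the limit to genes detected on all arrays were chosen after seeing the data. Leaving out each array gave 40 to 45 in males, 38 to 43 in females, 18 to 21 for the difference, 27 to 33 between wild-type sexes and 0 to 0 between mutant sexes. Averaging a gene's kept probes reversed Cacna1d to -0.40 in males and -0.02 in females. Of the other values of named genes over all settings, 1385 kept direction and side of the threshold, 80 lost the call and 5 gained it; with 1 array left out, 2937 kept it, 34 lost it and 5 gained it. The array-by-array losses concerned Cacna1h, Kcnmb2 and Kcnj3 (above), the differences of effects of Kcnt1, Kcnj6 and Kcnk13, and Kcnf1 and Kcnh2 between wild-type sexes. Kcnd1 was not called under 75th percentile scaling (0.18 in males, 0.14 in females), and the cause was not tested. No paired analysis was possible because replicate numbers were given only in accession order. A slide block was not run, as the headers used here give no slide, and the difference of effects has no value with only the groups compared. Signal near background limits the genes for which only a bound is given.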
